A study of Mus with 14 samples.

Results

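F13a1 and 7 genes followed with it as monocyte priming genes (Ly86, Ms4a6c, Ccr2, Tifab, Ctsh, Slpi and Emb) were examined in every library of the series. They are 8 of the 32285 genes listed in each matrix, and all 8 were found by symbol. The genes were listed by name, with earlier results of these data known, and the sources do not record which contrast singled them out. Their levels by lineage are therefore given as a description without a test, and the comparisons between groups, taken from fits over all genes, are not independent support for the choice. Single-cell RNA sequencing was carried out on bone marrow of 14 mice, 1 library a mouse. Donor cells (CD45.2+) had first been grown in primary hosts, which received poly(I:C) to induce recombination, and marrow of those hosts was moved into a second set of aged, irradiated CD45.1+ hosts. These were harvested after 20 weeks, and CD45.2+ cells that carried Kit and lacked lineage markers were sorted, with 12000 loaded for each library. The donor genotypes were 4. MxCre, from 3 mice, serves as the control and carries the recombinase driven by the interferon-inducible Mx promoter. The Dnmt3a genotype was represented by 4 mice, Dnmt3a;Tnfr1KO by 3 and Dnmt3a;Tnfr2KO by 4. Tumour necrosis factor alpha signals through a pair of receptors, Tnfr1 (gene Tnfrsf1a) and Tnfr2 (gene Tnfrsf1b), and the study's title places them in Dnmt3a-mutant clonal hematopoiesis. The labels do not say which primary host supplied which mouse, and where a source was shared the p-values then measure only the spread between these samples.

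Monocytes arise in the marrow from stem cells through myeloid progenitors that also give rise to neutrophils. Priming is the low expression of genes of a mature lineage in a progenitor that has not committed to it. F13a1 encodes the catalytic subunit of coagulation factor XIII, a transglutaminase that cross-links fibrin and is found in monocytes, macrophages and platelets. Among the secreted and lysosomal products, Ctsh encodes the cysteine protease cathepsin H and Slpi a secreted inhibitor of neutrophil serine proteases. Among the surface proteins and their partners, Ccr2 is the chemokine receptor through which monocytes leave the marrow, Ly86 encodes the soluble partner of the receptor Cd180, Ms4a6c a tetraspanning membrane protein, and Emb the glycoprotein embigin, a partner of monocarboxylate transporters. Tifab encodes an inhibitor of TRAF6-dependent signalling.

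Of the 8 genes, 4 lie on chromosome 13, in RefSeq coordinates of GRCm38.p6, the build named in the submitters' processing notes. F13a1 (ENSMUSG00000039109) spans chromosome 13 from 36867178 to 37050244, and Ly86 (ENSMUSG00000021423) follows at 37345345 to 37419036, a gap of 295.1 kb that holds 4 annotated genes. Tifab (ENSMUSG00000049625) lies at 56173703 to 56179002 and Emb (ENSMUSG00000021728) at 117220573 to 117274415 on the same chromosome. Ccr2 (ENSMUSG00000049103) lies on chromosome 9 at 124101918 to 124109140, as does Ctsh (ENSMUSG00000032359) at 90054267 to 90076095. Slpi (ENSMUSG00000017002) lies on chromosome 2 at 164354070 to 164356507. Ms4a6c (ENSMUSG00000079419) lies on chromosome 19 at 11469353 to 11487182, beside its related genes Ms4a6b and Ms4a6d, and reads that match more than 1 of them could not be told apart, so its level is uncertain to that extent. All 8 are protein-coding, and 5 of them overlap another annotated gene (long noncoding RNAs at F13a1, Ms4a6c and Tifab, a microRNA at Slpi and a pseudogene at Emb).

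The libraries held 3042 to 9724 barcodes and 62416022 to 162869740 UMIs (unique molecular identifiers, each standing for 1 captured transcript), and 70038 cells were kept. Dnmt3a replicate 1 stood apart, with 26.9% of its barcodes kept, against 66.7% to 94.4% in the other 13 libraries, and the highest median depth of kept cells (39561 UMIs, against a lowest of 11275 in Dnmt3a replicate 4). Dnmt3a replicate 4 also held 1919 of the 2900 cells that met the B-cell marker rule. Pairs of libraries shared 1 to 17 cell barcodes, with a median of 6. Tnfrsf1b marked its knockout, at 4.82 ± 0.689 CPM (UMIs of a gene per 1e6 UMIs of the library or cell group; SD, n = 4) in Dnmt3a;Tnfr2KO against 14.9 ± 1.76 in Dnmt3a (n = 4). Tnfrsf1a remained at 36.2 ± 2.49 CPM (n = 3) in the libraries labelled Dnmt3a;Tnfr1KO, against 47.3 ± 8.46 in Dnmt3a, and Dnmt3a itself was at 33.4 ± 4.40 CPM in Dnmt3a against 25.4 ± 4.98 in MxCre (n = 3). A 3' tag outside the deleted part does not check a deletion, so for those genes the labels were taken as given.

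F13a1 was at its highest in monocyte-lineage cells. They were defined by 7 markers, which include Csf1r, Klf4, Irf8, Mpeg1, Cx3cr1 and Fcgr1. The 10868 such cells had at least 2 of the 7 detected and at least 2 UMIs of them per 10000. Of these, 9090 (83.6%) also met the rule for primary granule progenitors, the cells with high Elane, Mpo, Prtn3, Ctsg and Ms4a3, and were counted as monocyte-lineage cells because that rule was applied only to cells that met no mature rule. Per mouse, the F13a1 level in them was 251.7, 279.97 and 253.2 CPM in MxCre. It was 512.5, 301.4, 259.3 and 367.6 CPM in Dnmt3a replicates 1 to 4. In the libraries labelled Dnmt3a;Tnfr1KO it was 379.7, 283.4 and 287.8 CPM, and in Dnmt3a;Tnfr2KO 344.5, 242.2, 385.6 and 261.3 CPM. Dnmt3a replicate 1 was the highest of the 14. All 3 MxCre libraries lay below all 3 labelled Dnmt3a;Tnfr1KO, and every other pair of groups overlapped. A median of 73.3% of a library's F13a1 UMIs (range 51.3% to 81.9%) lay in these cells, and a further 21.7% (14.5% to 35.8%) in the remaining primary granule progenitors. In the 1778 monocyte-lineage cells outside the granule rule, F13a1 was at 242.4 ± 111 CPM (SD, n = 14).

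The order of the lineages for F13a1 ran from monocyte-lineage cells (315.0 ± 75.5 CPM, SD over 14 mice) to primary granule progenitors (55.1 ± 19.9), neutrophil-lineage cells (31.7 ± 13.9), lymphoid-primed progenitors with at least 2 of Flt3, Dntt and Satb1 (20.9 ± 14.4, n = 12) and B cells (12.4 ± 12.9, n = 8). Below these came basophil and mast cell progenitors (6.16 ± 5.39, n = 13), early multipotent cells with Cd34 or Tespa1 (5.67 ± 4.74), Hlf-positive stem cells (5.11 ± 3.91), erythroid cells (4.31 ± 4.16) and megakaryocyte-lineage cells (4.25 ± 5.39, n = 12). The lowest monocyte-lineage value, 242.2 CPM, lay above the highest in primary granule progenitors, 104.6 CPM. From there down, each lineage overlapped the next in its range over mice. Platelets carry the factor XIII subunit, yet the megakaryocyte-lineage cells here, marked by Pf4, Gp9 and 5 further genes, held 0 to 18.01 CPM of F13a1.

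**Figure D1:**
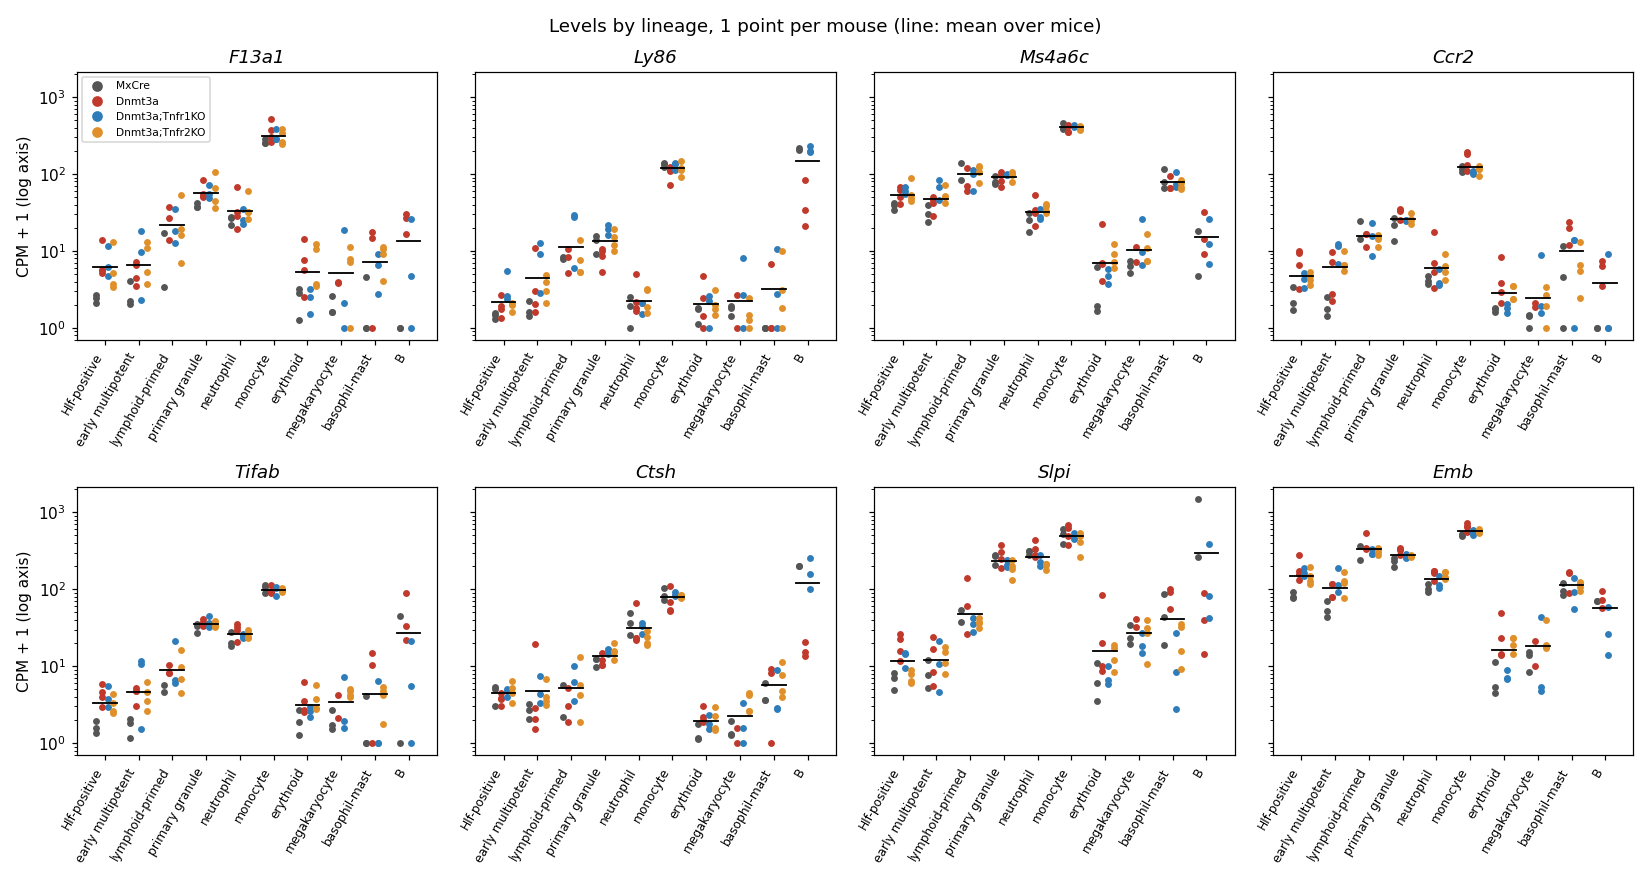
Level of each gene in 10 lineages, as CPM + 1 on a log axis, with 1 point per mouse coloured by genotype and a line at the mean over mice; only mice with at least 20 cells of a lineage are shown. The monocyte-lineage mean is the highest of the 10 for F13a1 (315.0 CPM), Ms4a6c, Ccr2, Tifab, Slpi and Emb, while for Ly86 and Ctsh the B-cell mean over 8 mice (147.1 and 118.7 CPM) lies above it, with the 3 Dnmt3a mice among them below the Dnmt3a monocyte-lineage mean.

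The other 7 genes shared the high monocyte-lineage level and differed in where else they were found. Tifab ranged from 98.0 ± 9.17 CPM in monocyte-lineage cells to 34.5 ± 4.30 in primary granule progenitors and 24.9 ± 4.75 in neutrophil-lineage cells, to 2.37 ± 1.37 in Hlf-positive cells (SD, n = 14 mice each). Ccr2 was at 122.5 ± 28.8 CPM in monocyte-lineage cells and 25.4 ± 5.52 in primary granule progenitors. The 2 libraries with enough T, NK and innate lymphoid cells held 131.6 and 379.0 CPM of Ccr2 in them. Ly86 was at 118.5 ± 20.1 CPM in monocyte-lineage cells and 12.3 ± 4.77 in primary granule progenitors, and B cells held 147.1 ± 87.2 CPM of it (n = 8, none of them Dnmt3a;Tnfr2KO libraries). The B-cell level of Ly86 was 205.8 and 215.9 CPM in 2 MxCre libraries and 190.7 to 230.2 CPM in the 3 labelled Dnmt3a;Tnfr1KO, but 20.2 to 81.6 CPM in 3 Dnmt3a libraries, below their group's monocyte-lineage mean of 103.1 CPM. Ctsh was at 79.4 ± 16.1 CPM in monocyte-lineage cells and 118.7 ± 96.0 in B cells, where it too was split by group, with 98.7 to 254.2 CPM in the MxCre and Dnmt3a;Tnfr1KO libraries and 12.4 to 19.9 CPM in Dnmt3a, against a Dnmt3a monocyte-lineage mean of 70.1 CPM. Ctsh was also present in neutrophil-lineage cells at 29.99 ± 13.2 CPM. The B cells were unlike in depth, with library medians of 2285 to 2857 UMIs in MxCre and 4029 to 15606.5 in Dnmt3a. The libraries labelled Dnmt3a;Tnfr1KO had medians of 2249 to 2659 UMIs. The part of depth or of the kind of B cell in the split of Ly86 and Ctsh was not tested.

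Slpi and Emb were spread most widely. Slpi was at 489.8 ± 109 CPM in monocyte-lineage cells, 265.3 ± 69.7 in neutrophil-lineage cells and 232.8 ± 60.7 in primary granule progenitors, and a median of 45.4% of its UMIs per library lay in monocyte-lineage cells. B cells held 297.7 ± 493 CPM of Slpi (n = 8), with up to 1475 CPM in 1 library. The 27 macrophages of Dnmt3a replicate 4, the 1 library with enough of them, were above the monocyte-lineage mean for Slpi (1522 CPM), Ctsh (625.2 CPM), Ms4a6c (478.4 CPM), Ly86 (451.3 CPM) and Ccr2 (375.1 CPM), and held 168.5 CPM of F13a1. Emb was at 572.7 ± 67.2 CPM in monocyte-lineage cells, 332.2 ± 75.0 in lymphoid-primed progenitors (n = 12), 275.2 ± 40.1 in primary granule progenitors and 147.9 ± 53.6 in Hlf-positive cells, against 15.03 ± 11.5 in erythroid cells. Ms4a6c was at 401.8 ± 30.1 CPM in monocyte-lineage cells, the smallest relative spread of the set over mice, and at 53.0 ± 14.7 in Hlf-positive cells against 6.05 ± 5.16 in erythroid cells. Emb and Ms4a6c had the highest means of the 8 in Hlf-positive cells. In the 1778 monocyte-lineage cells outside the granule rule, Slpi was at 184.7 ± 75.8 CPM, below its mean in neutrophil-lineage cells, and Ccr2 was at 290.4 ± 168 and Ctsh at 145.4 ± 81.3 CPM (SD, n = 14), above their means over all monocyte-lineage cells.

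Within the monocyte lineage the genes differed in how their level followed marker load. The cells were divided by their monocyte marker UMIs per 10000 UMIs, which contain none of the 8 genes. From the range of 2 to 4 to the range of 8 to 16 every gene was higher in 14 of 14 mice, with F13a1 going from 208.6 ± 57.6 to 516.1 ± 124 CPM and Ly86 from 73.5 ± 18.1 to 189.8 ± 25.1 CPM (SD, n = 14). In cells with 16 or more marker UMIs, Ccr2 was at 682.5 ± 183 CPM against 179.8 ± 43.8 in the range below (SD, n = 13 and 14), and Ctsh at 348.3 ± 61.8 against 140.4 ± 27.5 CPM, each higher in 13 of the 13 mice with enough cells. Ly86 was higher there in 12 of 13 mice and Ms4a6c in 10 of 13. Tifab was at 132.3 ± 31.9 CPM against 134.5 ± 11.2 below, higher in 7 of 13 mice. Slpi and Emb were lower in 13 of 13 mice, at 164.5 ± 96.7 and 273.7 ± 120 CPM in the top range against 642.8 ± 172 and 666.1 ± 85.7 CPM below it. F13a1 was at 285.3 ± 189 CPM in the top range and higher than in the range below in 3 of 13 mice, with values from 47.8 to 541.4 CPM. Elane, the neutrophil elastase gene, was at 4774 ± 1142, 4522 ± 1185, 3675 ± 1122 and 417.5 ± 397 CPM in the 4 ranges. The top range held 737 cells in the 13 mice with enough of them.

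**Figure D2:**
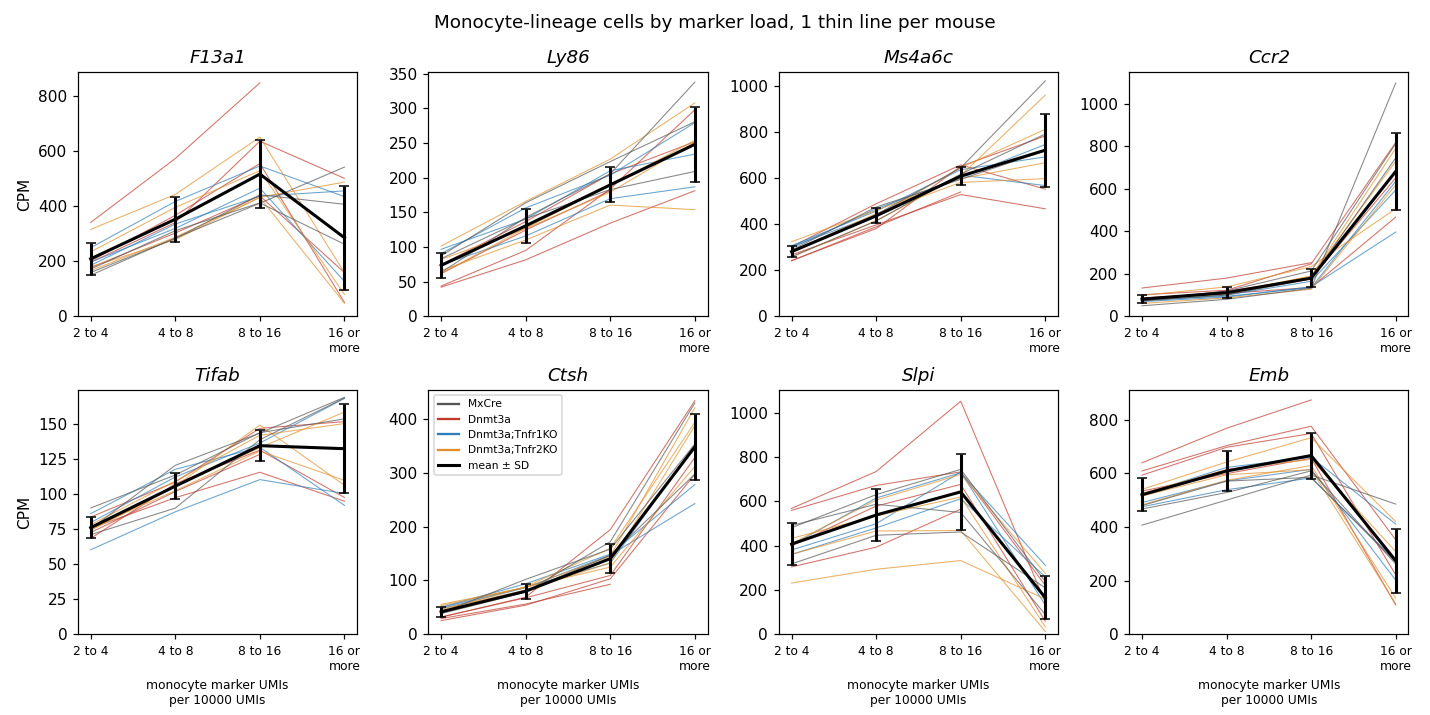
Level in CPM of each gene in monocyte-lineage cells grouped by marker load (marker UMIs per 10000 UMIs), with a thin line for each mouse coloured by genotype and the mean with its SD in black. Ccr2 and Ctsh climb to 682.5 and 348.3 CPM in the highest group, whereas Slpi and Emb drop to 164.5 and 273.7 CPM and F13a1 spreads between mice.

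By the correlation of log2(CPM + 1) over the means of 9 lineages, the genes outside the set closest to F13a1 among 8934 ranked were Dhx38 (Pearson r = 0.98), Mpeg1, Commd1, Csf1r and Atf6b (each r = 0.97). These are correlations over 9 points that share libraries, given as a description. Mpeg1, which encodes perforin-2, and Csf1r, the receptor of macrophage colony-stimulating factor, are markers of the monocyte rule itself. Dhx38, Commd1 and Atf6b varied little in level, from 23.6 to 40.4, from 108.6 to 137.0 and from 20.9 to 37.9 CPM. Within the set, Tifab stood closest to F13a1 (r = 0.98, rank 2), then Ctsh (0.92), Slpi (0.91), Ccr2 (0.91), Ly86 (0.89), Emb (0.76) and Ms4a6c (0.76).

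In Hlf-positive stem cells, Dnmt3a libraries held more of 5 of the 8 transcripts than MxCre libraries. Hlf-positive cells had at least 1 UMI of Hlf, a transcription factor of stem cells, and met no mature marker rule and not the primary granule rule. They numbered 10642, with 213 to 1520 a library. Their library median depth was 13032 to 18594 UMIs in MxCre and 16586.5 to 28302 UMIs in Dnmt3a. A rule of 1 Hlf UMI depends on depth, so it need not hold like cells in the 2 groups. F13a1 was at 1.43, 1.64 and 1.11 CPM in the 3 MxCre libraries and at 12.9, 4.65, 4.10 and 4.69 CPM in the 4 Dnmt3a libraries, so the groups did not overlap and Dnmt3a replicate 1 was far above the rest. The MxCre values rest on 14 to 32 UMIs a library. The fitted log2 fold change was 2.18 (SE 0.57, edgeR quasi-likelihood test, adjusted p = 0.0251).

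Emb had the highest level and was at 90.0, 79.0 and 75.99 CPM in MxCre against 280.8, 159.2, 131.2 and 174.1 CPM in Dnmt3a. No value overlapped, and the log2 fold change was 1.10 (SE 0.21, edgeR adjusted p = 0.00514). Tifab was at 0.58, 0.938 and 0.372 CPM in MxCre and 4.80, 2.999, 1.97 and 3.59 CPM in Dnmt3a, with a log2 fold change of 2.41 (SE 0.42, edgeR adjusted p = 0.00386). Slpi was at 7.23, 6.10 and 3.95 CPM against 14.8, 10.8, 21.6 and 25.0 CPM, with a log2 fold change of 1.56 (SE 0.29, edgeR adjusted p = 0.00514). For Tifab and Slpi too the 2 groups did not overlap. In each MxCre library Tifab rested on fewer UMIs than F13a1. Ccr2 was at 2.41, 0.704 and 1.11 CPM in MxCre and 8.31, 2.25, 5.58 and 9.06 CPM in Dnmt3a, where replicate 2 fell below the highest MxCre library, and its log2 fold change was 1.92 (SE 0.42, edgeR adjusted p = 0.0118). Ly86 (log2 fold change 0.89, adjusted p = 0.325), Ms4a6c (0.45, adjusted p = 0.171) and Ctsh (-0.39, adjusted p = 0.430) did not pass the edgeR test. The median log2 fold change of the 8 was 1.33, against 0.01 over all 12611 genes tested, of which 4.96% were called higher and 11% called in either direction. The share of all genes whose values in the 2 groups did not overlap is not given here.

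**Figure D3:**
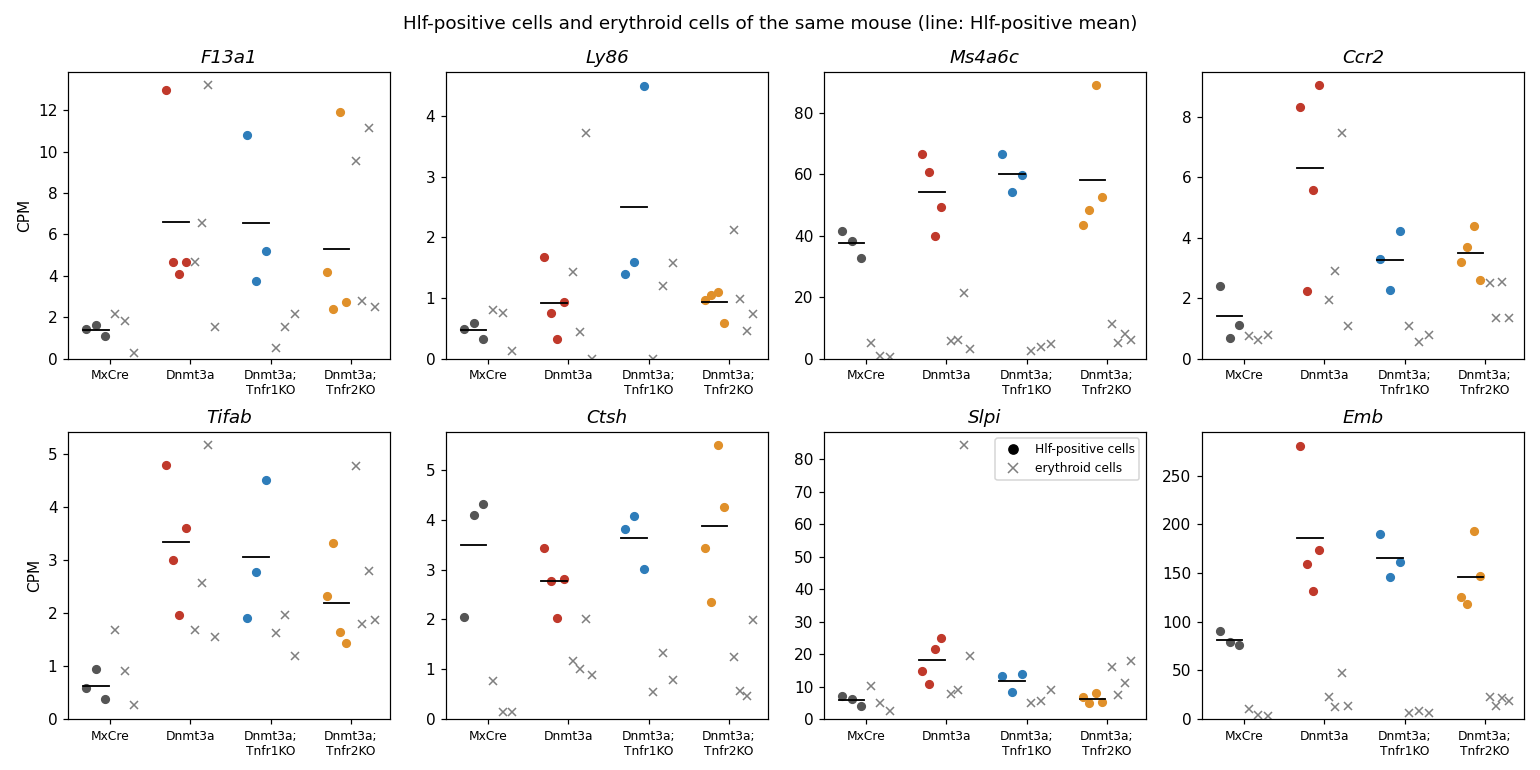
CPM of each gene in Hlf-positive cells (filled points, by genotype, with a line at the mean) and in erythroid cells of the same mice (crosses). Emb and Ms4a6c lie well above the erythroid values in all 14 mice, whereas F13a1, Ly86, Tifab and Slpi lie among them.

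The call for F13a1 was lost when any MxCre library or Dnmt3a replicate 1 was left out (adjusted p up to 0.132 in edgeR), and that for Ccr2 without MxCre replicate 2 or 3. With Dnmt3a replicates 1 and 4 both left out, Tifab, Slpi and Emb were still called and the other 2 were not. The count of all genes called in that fit is given with the processing results below. Among Hlf-positive cells that also had a UMI of Mecom, another stem cell gene, the same 5 genes were called. F13a1 was at a log2 fold change of 2.02 there, with an edgeR adjusted p of 0.0444. Of all 11795 genes tested in those cells, 1074 were called, 477 of them higher.

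Free RNA in the droplets leaves UMIs of abundant genes in cells that do not express them. The erythroid cells of each library were taken as a stand-in for this background. Whether their level holds free RNA alone was not tested. Erythroid cells that also met the primary granule rule stayed among them, whereas such cells were left out of the Hlf-positive set. F13a1 in erythroid cells was at 2.16, 1.82 and 0.264 CPM in MxCre, 4.67, 6.56, 13.2 and 1.54 CPM in Dnmt3a, 0.538, 1.52 and 2.18 CPM in the libraries labelled Dnmt3a;Tnfr1KO, and 9.52, 2.77, 11.1 and 2.48 CPM in Dnmt3a;Tnfr2KO. The Hlf-positive level was above it in 8 of 14 libraries for F13a1 and Slpi, in 9 for Ly86 and Tifab, in 12 for Ccr2, and in all 14 for Ms4a6c, Ctsh and Emb. The median ratio of the Hlf-positive to the erythroid level was 1.08 for F13a1, 1.18 for Tifab, 1.21 for Slpi, 2.32 for Ccr2, 3.13 for Ctsh, 11.2 for Ms4a6c and 12.5 for Emb. The erythroid level of F13a1 itself averaged 6.49 CPM in Dnmt3a and 6.48 CPM in Dnmt3a;Tnfr2KO. It averaged 1.41 CPM both in MxCre and in the libraries labelled Dnmt3a;Tnfr1KO. Over all kept cells F13a1 averaged 118.1, 94.9, 49.4 and 114.0 CPM in Dnmt3a, Dnmt3a;Tnfr2KO, MxCre and the libraries labelled Dnmt3a;Tnfr1KO. The erythroid means thus did not follow the level over all kept cells. In the libraries labelled Dnmt3a;Tnfr1KO the Hlf-positive level of F13a1 averaged 6.57 CPM, and that of F13a1, Tifab and Slpi was above the erythroid level in 3 of 3. The erythroid level of replicate 1 there, 0.538 CPM, comes from 149 cells with 1860441 UMIs in all, and so from very few F13a1 UMIs. Megakaryocyte-lineage cells of that group held 0 to 18.01 CPM of F13a1.

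After each library's erythroid level was subtracted, the F13a1 difference between Dnmt3a and MxCre was 0.125 CPM (exact two-sided permutation test, p = 0.971), with group means of 0.106 and -0.0188 CPM. Emb kept a difference of 86.6 CPM (162.2 against 75.6 CPM, exact p = 0.0571, adjusted over 32 such tests p = 0.549, no overlap of the groups), where 0.0286 is the smallest p that 4 against 3 mice allow. Tifab differed by 0.922 CPM (exact p = 0.600), Ccr2 by 2.27 CPM (exact p = 0.457) and Slpi by -11.9 CPM (exact p = 1), the last with 84.3 CPM in the erythroid cells of Dnmt3a replicate 3. The part of free RNA in the calls for these genes was not tested. The subtraction does not measure it, since the erythroid level may hold more than free RNA. In the libraries labelled Dnmt3a;Tnfr1KO, F13a1 averaged 5.15 CPM after the subtraction. Ms4a6c, Ctsh and Emb were the members above the erythroid level in every library.

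The share of Hlf-positive cells with an F13a1 UMI, after thinning each cell to 5000 UMIs, was 0.506% ± 0.206 in MxCre (n = 3), 2.14% ± 1.66 in Dnmt3a (n = 4), 2.98% ± 1.79 in the libraries labelled Dnmt3a;Tnfr1KO (n = 3) and 1.96% ± 1.24 in Dnmt3a;Tnfr2KO (n = 4). All 3 MxCre values (0.334% to 0.734%) lay below the lowest of the other 11 (0.952%). Dnmt3a against MxCre did not pass an exact two-sided permutation test (p = 0.0857, adjusted over 4 comparisons p = 0.343). No p below 0.0286 was possible in that test, and a single comparison at that p could not have passed the adjustment alone. The same share in erythroid cells was 0.507% ± 0.478 in MxCre and 1.34% ± 1.06 in Dnmt3a, and it was below the Hlf-positive share in 11 of 14 libraries. Thinning left out 169 shallower Hlf-positive cells, and the median depth before it was 10784 to 28392.5 UMIs in Hlf-positive cells and 10459 to 38682 UMIs in erythroid cells. By contrast, an F13a1 UMI was present in 54.8% to 76.7% of thinned monocyte-lineage cells.

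The 157 Hlf-positive cells with an F13a1 UMI after thinning were set against the 10316 without one. Emb was present in 58.0% of the former and 39.5% of the latter, and Ms4a6c in 29.3% and 19.3%. Among genes outside the set, Elane was present in 36.3% and 21.7%, Mpo in 74.5% and 55.7%, and the stem cell gene Mecom in 14.6% and 22.4%. Of the 9 mice with at least 10 F13a1-positive cells, 8 had the higher share in those cells for Emb, Elane and Mpo, and 2 for Mecom. The same count was 7 for Ms4a6c, 6 for Slpi, 5 for Tifab, 4 for Ccr2 and 3 for Ctsh. Of the 157 cells, only 5 had a UMI of Tifab, 5 of Ccr2 and 4 of Ctsh, so detection limits the counts for them. Their pooled shares were 3.18% against 0.989% for Tifab, 3.18% against 1.22% for Ccr2 and 2.55% against 1.95% for Ctsh. For Slpi they were 9.55% against 3.15%. The pooled shares mix groups that differ in F13a1 and Emb. Ly86 was seen in 1 of the 157 cells, which is too few to compare. Since cells of 1 library share their free RNA, these shares are a description and were not tested.

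Some of the wider myeloid genes were called in the same comparison. Of a list of 30 monocyte-lineage genes, 26 could be tested in Hlf-positive cells, and 8 were called higher and 0 lower by edgeR, beside 4.96% of all genes called higher and 11% in either direction. They included Irf8, a transcription factor of monocyte fate (log2 fold change 1.37, SE 0.21), Itgam (1.30, SE 0.40), Ctss (1.04, SE 0.29), Tyrobp (0.95, SE 0.23) and Cebpa (0.76, SE 0.22). Of 16 granule genes, 14 were tested, and Mpo (1.12, SE 0.23), Ctsg (1.10, SE 0.26) and Prtn3 (0.55, SE 0.14) were called higher. Irf8 is a marker of the monocyte rule, and Mpo, Ctsg and Prtn3 are markers of the primary granule rule. Cells that met either rule were left out of the Hlf-positive set, so the levels of these markers and their sums are limited by the rules. The median log2 fold changes of the lists were 0.65 and 0.54, beside 0.01 over all genes. Of the 7 stem cell markers used to check these cells, those called lower included Procr (-2.20, SE 0.33), Ly6a (-1.34, SE 0.38) and Meis1 (-0.40, SE 0.12). Procr was at 13.7 to 30.02 CPM in MxCre and 3.39 to 7.20 CPM in Dnmt3a, and the summed primary granule markers at 855.3 to 1561 against 2036 to 2506 CPM. The summed monocyte markers, at 12.1 to 14.7 CPM in MxCre and 20.96 to 37.6 CPM in Dnmt3a, did not overlap. The summed macrophage markers were at 6.69 to 10.7 CPM in MxCre and 1.199 to 6.88 CPM in Dnmt3a. The part of these shifts in marker levels in the member results was not tested.

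In Hlf-positive cells, Slpi was the only member called between either receptor knockout group and Dnmt3a. The comparisons with Dnmt3a share the same 4 Dnmt3a libraries, so their values are given side by side. Slpi, the protease inhibitor, was at 6.87, 5.01, 8.06 and 5.34 CPM in Dnmt3a;Tnfr2KO, below every Dnmt3a library, and fell by 1.41 on the log2 scale (SE 0.27, edgeR adjusted p = 0.0264), where 0.206% of genes were called lower and 0.65% in either direction. In the libraries labelled Dnmt3a;Tnfr1KO it was at 13.2, 8.36 and 13.8 CPM, with a log2 fold change of -0.48 (edgeR adjusted p = 0.396). The Slpi level in Dnmt3a;Tnfr2KO was below the erythroid level in 4 of 4 libraries. After the erythroid level was subtracted the difference from Dnmt3a turned to 5.26 CPM (exact two-sided permutation test, p = 1). The call was lost in 6 of the alternative fits and without Dnmt3a replicate 3 or 4 or Dnmt3a;Tnfr2KO replicate 1 or 2 (adjusted p up to 0.331).

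F13a1 was at 10.8, 3.73 and 5.19 CPM in the libraries labelled Dnmt3a;Tnfr1KO and 4.18, 2.41, 11.9 and 2.72 CPM in Dnmt3a;Tnfr2KO. Both groups overlapped Dnmt3a, with log2 fold changes of 0.11 (SE 0.51) and -0.34 (SE 0.47), and edgeR adjusted p = 0.943 and 0.793. Emb was at 189.8, 145.7 and 161.8 CPM and at 125.5, 117.7, 192.8 and 146.5 CPM, with log2 fold changes of 0.00 (SE 0.20) and -0.21 (SE 0.18). All 11 values with Dnmt3a in the genotype lay above the highest MxCre value for F13a1, Tifab and Emb. The share of all genes that separated in this way is not given here. Ly86 had a log2 fold change of 1.61 (SE 0.49) in the libraries labelled Dnmt3a;Tnfr1KO against Dnmt3a and did not pass (edgeR adjusted p = 0.103, 1.34% of genes called). Cebpb, a myeloid transcription factor of the wider list, was called higher there (0.82, SE 0.19, edgeR adjusted p = 0.0437). Between the 2 receptor knockouts, 0 members passed the edgeR test, where 0.222% of genes were called, and 0 the DESeq2 test. An unadjusted edgeR p under 0.05 was found for 2 members (Slpi and Ly86), beside 710 of the 12611 genes.

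**Figure D4:**
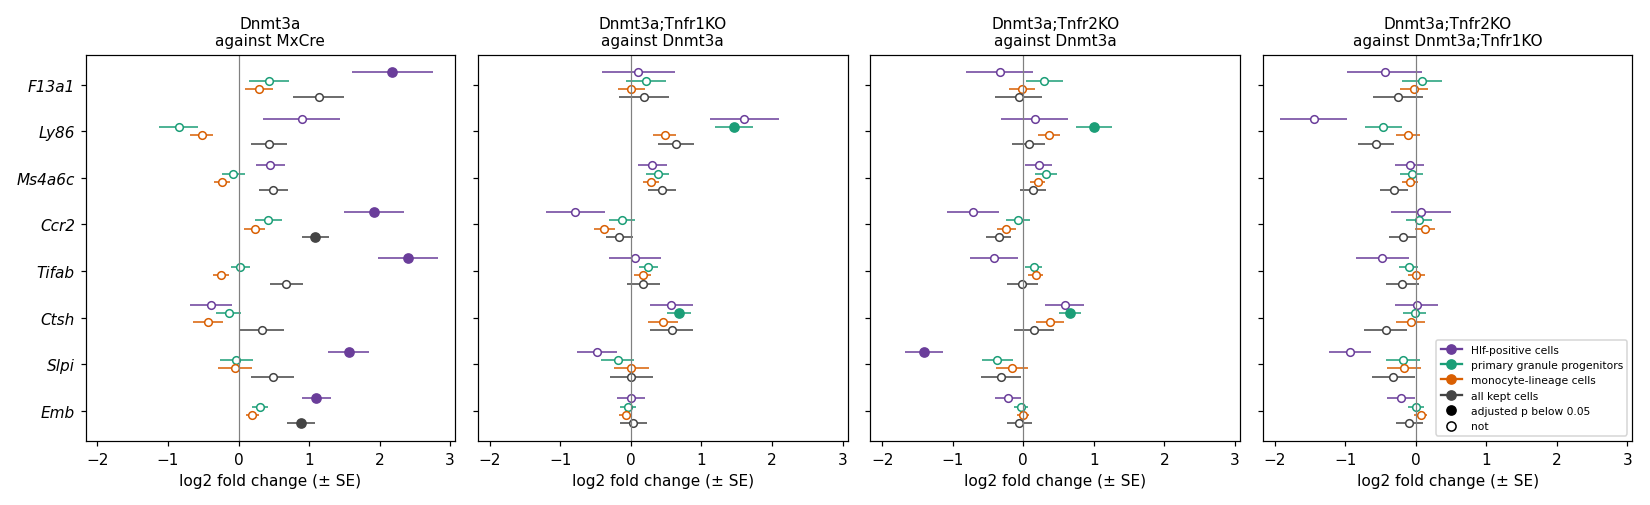
Fitted log2 fold change with its SE for each gene in the 4 comparisons, coloured by cell population; filled points passed the edgeR test at an adjusted p below 0.05. In Dnmt3a against MxCre the 5 filled Hlf-positive points lie between 1.10 and 2.41, while the monocyte-lineage points lie between -0.52 and 0.29.

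In primary granule progenitors, Ly86 and Ctsh were higher in both receptor knockout groups than in Dnmt3a. Ly86 was at 9.63, 9.08, 7.65 and 4.26 CPM in Dnmt3a and 15.3, 18.2 and 20.6 CPM in the libraries labelled Dnmt3a;Tnfr1KO, with no overlap. Its log2 fold change was 1.46 (SE 0.27, edgeR adjusted p = 0.0118). In Dnmt3a;Tnfr2KO it was at 18.5, 14.05, 10.9 and 8.87 CPM, where only replicate 4 fell within the Dnmt3a range, with a log2 fold change of 1.00 (SE 0.26, edgeR adjusted p = 0.0460). MxCre libraries were at 12.7, 8.20 and 14.8 CPM, and Dnmt3a against MxCre had a log2 fold change of -0.85 (SE 0.28) that did not pass (edgeR adjusted p = 0.0822). The share of all genes without overlap between Dnmt3a and the libraries labelled Dnmt3a;Tnfr1KO is not given here.

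Ctsh was at 13.8, 11.1, 9.30 and 9.36 CPM in Dnmt3a, 15.7, 15.3 and 13.4 CPM in the libraries labelled Dnmt3a;Tnfr1KO and 18.8, 14.2, 14.8 and 11.1 CPM in Dnmt3a;Tnfr2KO. Both knockout groups overlapped Dnmt3a at its replicate 1. The log2 fold changes were 0.68 (SE 0.17, edgeR adjusted p = 0.0320) and 0.67 (SE 0.16, edgeR adjusted p = 0.0359). The other 6 genes did not pass in either comparison, among them F13a1 with 0.21 (SE 0.28) and 0.30 (SE 0.26). Of all 13214 genes, 2.46% and 1.93% were called higher in the 2 comparisons, and 4.62% and 3.64% in either direction. The median log2 fold change of the 8 was 0.23 and 0.22, beside 0.01 and 0.02 over all genes.

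**Figure D5:**
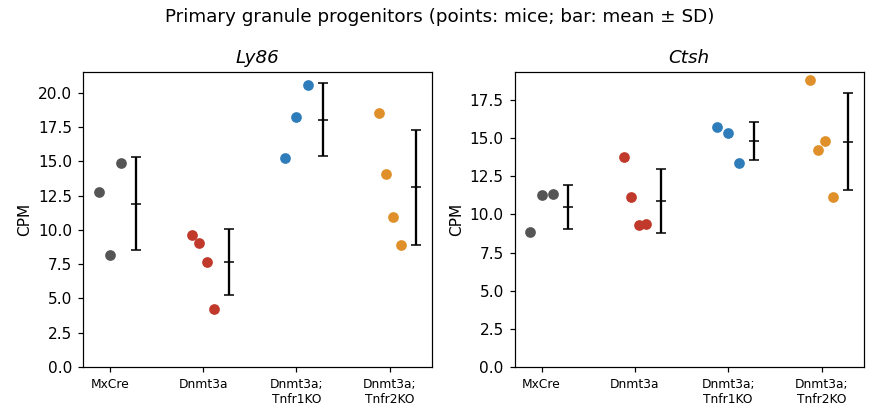
Ly86 and Ctsh in CPM in primary granule progenitors, with 1 point per mouse by genotype and the mean with its SD beside them. For Ly86 the 4 Dnmt3a mice sit at 4.26 to 9.63 CPM, below all 3 mice labelled Dnmt3a;Tnfr1KO.

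These 4 calls were sensitive to single libraries. Leaving out Dnmt3a;Tnfr1KO replicate 2 or 3 ended the Ly86 call of that group (adjusted p up to 0.0630), and leaving out Dnmt3a replicate 1, 3 or 4 or Dnmt3a;Tnfr2KO replicate 1, 2 or 3 ended that of Dnmt3a;Tnfr2KO (adjusted p up to 0.122). The Ctsh calls were lost without Dnmt3a replicate 3 or 4, without any library labelled Dnmt3a;Tnfr1KO (adjusted p up to 0.127), and without Dnmt3a;Tnfr2KO replicate 1, 2 or 3 (adjusted p up to 0.0980, all edgeR). Between the 2 knockout groups 0 of the 8 genes passed by edgeR or DESeq2 and 0 had an unadjusted p under 0.05, where 0.272% of genes were called. Against MxCre, 0 of the 8 genes passed in Dnmt3a by edgeR, where 5.06% of all genes were called, and 1 (Ly86) by DESeq2. Of the 8, 3 had an unadjusted p under 0.05 there. The shares of all genes at an unadjusted p under 0.05 are not given here for these comparisons. The list of 30 monocyte-lineage genes gave Zeb2 higher (0.46, SE 0.12) and Ly6c2 (-0.72, SE 0.17) and Cebpb (-0.71, SE 0.16) lower in that comparison, and Cebpb was called higher in the libraries labelled Dnmt3a;Tnfr1KO against Dnmt3a (0.59, SE 0.16).

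In monocyte-lineage cells, 0 of the 8 genes passed the edgeR test in any of the 4 comparisons. At an unadjusted p under 0.05 there were 1 in Dnmt3a against MxCre, 4 in the libraries labelled Dnmt3a;Tnfr1KO against Dnmt3a, 1 in Dnmt3a;Tnfr2KO against Dnmt3a and 0 between the knockouts, and DESeq2 called 1 gene, Ly86, in the first. The shares of all 12708 genes called by edgeR were 1.36%, 1.06%, 2.32% and 0.212%. Those at an unadjusted p under 0.05 are not given here. F13a1 had a log2 fold change of 0.29 (SE 0.20) in Dnmt3a against MxCre, and Ly86 had -0.52 (SE 0.17, edgeR adjusted p = 0.112) with 108.0 to 121.4 CPM in 3 Dnmt3a libraries and 72.1 in replicate 3, against 124.1 to 139.3 CPM in MxCre. Without Dnmt3a replicate 4, whose Ctsh level of 109.0 CPM was the highest of the 14, Ctsh was called in 3 comparisons, lower in Dnmt3a than in MxCre (-0.74, adjusted p = 0.0348) and higher in the knockout groups (0.77 and 0.69, adjusted p = 0.0397 and 0.0411, all edgeR). Of the wider monocyte list, Ly6c2 was called lower in Dnmt3a than in MxCre (-0.79, SE 0.19, edgeR adjusted p = 0.0479).

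The change in Hlf-positive cells differed from that in monocyte-lineage cells of the same mice. In a fit with the mouse as a block, the log2 fold change of Dnmt3a against MxCre in Hlf-positive cells minus that in monocyte-lineage cells was 1.85 for F13a1 (SE 0.36, edgeR adjusted p = 0.00830). It was 2.65 for Tifab (SE 0.37), 1.63 for Ccr2 (SE 0.34), 1.56 for Slpi (SE 0.24) and 0.86 for Emb (SE 0.16), all called, where 2.94% of 13672 genes were. Ly86 (1.41), Ms4a6c (0.67) and Ctsh (0.12) did not pass. For Dnmt3a;Tnfr2KO against Dnmt3a the same difference was called for 1 member, Slpi (-1.32, edgeR adjusted p = 0.0249), where 0.0512% of genes were. The erythroid level given above applies to the Hlf-positive side of this difference as well.

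Summed over all kept cells, Ccr2 and Emb were higher in Dnmt3a than in MxCre. Ccr2 was at 67.8, 36.3, 44.4 and 58.4 CPM in Dnmt3a against 24.9, 24.1 and 18.4 CPM in MxCre, and its log2 fold change was 1.09 (SE 0.20, edgeR adjusted p = 0.0340). Emb was at 326.0 ± 62.4 CPM (SD, n = 4) against 164.1 ± 21.3 (n = 3), with a log2 fold change of 0.89 (SE 0.20, edgeR adjusted p = 0.0437). Neither gene overlapped between the groups. The share of all genes that separated in this way is not given here. F13a1 was at 188.7, 81.7, 90.7 and 111.4 CPM against 51.6, 61.7 and 34.8 CPM, with a log2 fold change of 1.13 (SE 0.37) that did not pass (edgeR adjusted p = 0.0975). The background was 2.32% of 15805 genes called, with 1.2% of the genes called higher, and the 8 had a median log2 fold change of 0.59 beside 0.03 over all genes. Both calls were lost with deep cells left out (those above 3 times their library's median UMIs, which were 23.2% of the cells of Dnmt3a replicate 4 and at most 1.80% of any other library), and without MxCre replicate 2 or 3 or Dnmt3a replicate 1 or 3, and that of Emb also without MxCre replicate 1. In the other 3 comparisons 0 members passed by edgeR or DESeq2, where 0.481%, 1.03% and 0.196% of genes were called by edgeR. At an unadjusted edgeR p under 0.05 there were 2, 0 and 1 members, beside 3070, 3642 and 649 of the 15805 genes.

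In such sums, more cells of a lineage and more RNA per cell cannot be told apart, and the share of monocyte-lineage cells moved with them. MxCre libraries had 9.64% ± 2.67 of such cells (n = 3) and Dnmt3a libraries 17.6% ± 5.06 (n = 4). The share was 19.7% ± 5.72 where the label was Dnmt3a;Tnfr1KO (n = 3) and 15.4% ± 3.71 where it was Dnmt3a;Tnfr2KO (n = 4). The difference of 7.92 percentage points between Dnmt3a and MxCre did not pass an exact two-sided permutation test (p = 0.0857, adjusted over 4 comparisons p = 0.343). No p below 0.0286 was possible in that test, and a single comparison at that p could not have passed the adjustment alone. The difference was 4.12 percentage points with the marker rule applied to cells thinned to 5000 UMIs. The receptor knockouts differed from Dnmt3a by 2.19 and -2.20 percentage points (exact p = 0.571 and 0.514). With 1 library left out, these differences ranged from 0.0375 to 5.48 and from -4.35 to -0.463 percentage points.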

How the data were processed

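Gene expression was measured by 10x 3' single-cell RNA sequencing in 14 libraries. The deposited matrices hold whole-number UMI counts per gene and cell, and the file headers name Cell Ranger 6.0.0 as the software. The submitters' processing notes also name bcl2fastq 2.20.0.422 and the build mm10 (GRCm38). Cells with at least 1000 UMIs, 500 genes and under 10% mitochondrial UMIs were kept. Lineages were assigned by marker UMIs, with thresholds set after seeing the data. A cell meeting more than 1 mature rule was left out as mixed (886 cells), and no doublet caller was run. The members and gene lists were chosen with earlier results of these data known. Counts were summed per mouse and lineage (at least 20 cells) and tested with edgeR 4.0.16 in R 4.3.3 (quasi-likelihood, TMM, filterByExpr, 4 groups in 1 model, Benjamini-Hochberg adjustment over all genes, called below 0.05); SE is the absolute log2 fold change over the root of F. DESeq2 1.42.0 was an alternative. Printed CPM use UMI totals without TMM. The fits were tested on simulated data: of 100 genes changed 2-fold in Hlf-positive sums of Dnmt3a against MxCre (12546 genes tested), 61% were called, and of 100 changed 4-fold, 100%. The changed genes were drawn from those above a minimum mean count, and every gene had the same fixed dispersion. These shares therefore do not carry over to members with few UMIs or a wider spread between mice. The named genes were the 8 members in every comparison, up to 6 called genes of highest absolute log2 fold change from each of the 2 lists, and the 5 genes most correlated with F13a1 over lineages and over mice; Dnmt3a, Tnfrsf1a and Tnfrsf1b checked the labels. Some genes of the marker rules and lists are not reported here by name. The fit of the Hlf-positive minus the monocyte-lineage change, the erythroid subtraction, the Hlf and Mecom gate, the monocyte rule without granule cells and the joint removal of Dnmt3a replicates 1 and 4 were added after seeing the data.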

Additional observations from a re-analysis of the deposited data

Results flagged for a closer look

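Single-library values in 4 cases lay far from the other 3 of their group by Dixon's criterion, among 68 group values checked, where chance gives about 1 in 20. F13a1 in Hlf-positive cells of Dnmt3a replicate 1 was at 12.9 CPM, against 4.10 to 4.69 CPM in the other 3. F13a1 in primary granule progenitors of the same library was at 83.3 CPM, against 48.6 to 53.9 CPM. This is the library with 26.9% of its barcodes kept and the highest median depth. The share of Hlf-positive cells with an F13a1 UMI was 3.82% in Dnmt3a;Tnfr2KO replicate 3, against 1.26% to 1.41% in the other 3, and its erythroid cells were at 11.1 CPM of F13a1. Ctsh over all kept cells of Dnmt3a replicate 4 was at 45.3 CPM, against 19.4 to 22.6 CPM. In that library Ctsh was at 109.0 CPM in monocyte-lineage cells and 14.1 CPM in B cells. The part of depth or free RNA in these values was not tested.

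The change from MxCre to Dnmt3a differed between Hlf-positive and monocyte-lineage cells in an edgeR test of the difference itself for 5 genes, by 1.85 for F13a1, 2.65 for Tifab, 1.63 for Ccr2, 1.56 for Slpi and 0.86 for Emb on the log2 scale. After subtraction of the erythroid level, the Hlf-positive differences between Dnmt3a and MxCre were 0.125 CPM for F13a1, 0.922 for Tifab, 2.27 for Ccr2, -11.9 for Slpi and 86.6 for Emb, and none passed an exact permutation test, in which 4 against 3 mice allow no p below 0.0286 before adjustment over 32 tests. For Slpi the change from Dnmt3a to Dnmt3a;Tnfr2KO also differed, by -1.32 (edgeR adjusted p = 0.0249), while the Hlf-positive difference was 5.26 CPM after the subtraction.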

How the results depend on the processing

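Of 184 alternative values of the counts of called members and the 8 comparisons of shares, 160 kept their direction and side of the threshold, 16 were no longer past it, 4 newly passed it and 4 reversed. Of 231 for single genes, 189, 28, 7 and 7 did so. In Hlf-positive cells, the 5 calls in Dnmt3a against MxCre became 3 without Dnmt3a replicates 1 and 4 together and 3 to 5 when 1 library was left out. With at least 2 Hlf UMIs required, F13a1 had an edgeR adjusted p of 0.0525. In the libraries labelled Dnmt3a;Tnfr1KO against Dnmt3a, 1 was called after the marker rule was applied to thinned cells (Ccr2, log2 fold change -1.92, edgeR adjusted p = 0.0487). The 1 call in Dnmt3a;Tnfr2KO against Dnmt3a became 0 with only the 2 groups compared, the thinned marker rule, deep cells left out, no exclusion by marker rules, the Hlf and Mecom gate, or Dnmt3a replicates 1 and 4 left out, and 0 to 1 when 1 library was left out. The 2 calls over all kept cells became 0 with only the 2 groups compared, with deep cells left out and without Dnmt3a replicates 1 and 4, and 0 to 2 when 1 library was left out. DESeq2 called 3 members over all kept cells in Dnmt3a against MxCre, beside 1501 of 15805 genes. In monocyte-lineage cells, DESeq2 called 1 in Dnmt3a against MxCre, and leaving out 1 library gave 0 to 1 there and in both comparisons of a knockout with Dnmt3a. In primary granule progenitors, the thinned marker rule gave 2 and DESeq2 1 in Dnmt3a against MxCre, where none was called. The 2 calls in the libraries labelled Dnmt3a;Tnfr1KO became 0 without Dnmt3a replicates 1 and 4, and those in Dnmt3a;Tnfr2KO became 0 then and with only the 2 groups compared, and 1 with the thinned marker rule and with deep cells left out; leaving out 1 library gave 0 to 2 in each. Leaving out deep cells removed 58.3% of monocyte-lineage cells, 71.0% of primary granule progenitors and 34.3% of Hlf-positive cells of Dnmt3a replicate 4, and at most 5.87% in any other library. The cause of these changes was not tested.

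The difference in the share of Hlf-positive cells with an F13a1 UMI reversed for Dnmt3a;Tnfr2KO against Dnmt3a when thinned to 3000 UMIs (0.357 percentage points) and with deep cells left out (0.0632), and for Dnmt3a;Tnfr1KO against Dnmt3a when not thinned (-1.76) or without exclusion by marker rules (-1.84). With 1 library left out, these differences ranged from -0.794 to 0.642 and from -0.196 to 1.65, and that between the knockouts from -1.63 to 0.0208. The difference of 1.63 for Dnmt3a against MxCre ranged from 0.816 to 2.03. Slpi reversed after the erythroid level was subtracted, at -11.9 CPM for Dnmt3a against MxCre and 5.26 CPM for Dnmt3a;Tnfr2KO against Dnmt3a. Ctsh in monocyte-lineage cells, with deep cells left out, was at 0.29 for Dnmt3a against MxCre, -0.27 for Dnmt3a;Tnfr1KO and -0.34 for Dnmt3a;Tnfr2KO against Dnmt3a. Without cells that meet the primary granule rule it was at -0.49 and -0.0755 in the last 2 comparisons.

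The mice share replicate numbers across groups, and the numbers are not known to pair them. The deviations of 19 same-numbered pairs correlated between -0.18 and 0.11 in Hlf-positive cells and between -0.33 and 0.25 over the 4 populations. Of these pairs, 1 was over 0.1 in Hlf-positive cells and 3 to 5 in the others. The medians over the 4 populations were -0.0214 to 0.00818, against -0.0133 to 0.0121 for pairs of unlike number. Of 14 libraries, 3 correlated best with their own number in Hlf-positive cells and 6 in each of the others. No chance level was worked out for these counts, so they do not settle whether the numbers pair mice. With the replicate number as a block, the member calls in Hlf-positive cells were 5, 0, 1 and 0 in the 4 comparisons, and in primary granule progenitors 1 (Ly86, without Ctsh) for the libraries labelled Dnmt3a;Tnfr1KO and 2 for Dnmt3a;Tnfr2KO. Over all genes, the block gave 133 calls against 367 over all kept cells in Dnmt3a against MxCre, and in primary granule progenitors 307 against 610 and 213 against 481 for the 2 knockouts. For Dnmt3a against MxCre over all kept cells, 7 genes were called with only the 2 groups compared, 0 with deep cells left out and 1501 by DESeq2. In monocyte-lineage cells, 173 became 56, 4 and 622 under the same settings, and in Hlf-positive cells 1390 became 886 with only the 2 groups compared and 394 without Dnmt3a replicates 1 and 4. Without MxCre replicate 2, the Hlf-positive count was 354. Over all kept cells it ranged from 0 without that library to 1215 without Dnmt3a replicate 2, so the shares of all genes called moved as well.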

Other observations

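Over the 14 mice, the genes outside the set whose level in Hlf-positive cells followed F13a1 most closely, among 12610 ranked, were Tacc1 (Pearson r = 0.93), Xpc (0.92), Galnt3 (0.92), Atp8b4 (0.91) and Cep164 (0.91). Within the set, Emb ranked first of all genes (r = 0.94), followed by Ms4a6c (0.84), Ccr2 (0.67), Tifab (0.66), Slpi (0.59), Ly86 (0.58) and Ctsh (0.24). These 14 points share libraries and genotype groups, and the values are a description.

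The subtraction of erythroid levels also gave values for the comparison of the 2 receptor knockouts. F13a1 in Hlf-positive cells less the erythroid level averaged -1.18 CPM in Dnmt3a;Tnfr2KO and 5.15 CPM in the libraries labelled Dnmt3a;Tnfr1KO, a difference of -6.33 CPM without overlap (exact two-sided permutation test, p = 0.0286, the smallest that 4 against 3 mice allow, adjusted p = 0.457 over 32 such tests). Slpi differed by -12.0 CPM in the same way (exact p = 0.0286, adjusted p = 0.457). The erythroid F13a1 level of Dnmt3a;Tnfr1KO replicate 1 rested on very few UMIs. Without subtraction, neither gene passed in that comparison (edgeR adjusted p = 1 and 0.519).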
